A study of Rattus norvegicus with 36 samples.

Results

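The 5p arms of microRNAs encoded inside the Hox gene clusters, miR-10a-5p, miR-10b-5p, miR-196a-5p and miR-196b-5p, were followed through the rat aorta. They are 4 of the 835 names in the deposited table and were chosen by name, with earlier results of these data known. Small RNA was sequenced from 1 piece of the descending thoracic aorta per male rat, and all animals carried the background of the Dahl salt-sensitive strain (SS). S2Ba animals carried in addition the distal portion of chromosome 2 from the Brown Norway (BN) strain, and S2Bb animals its middle segment. Food with normal salt (NSD) or with 4% NaCl (high salt, HSD) was given in every strain from 4 to 6 weeks of age until 12 to 13 weeks. SS NSD, SS HSD, S2Ba NSD and S2Ba HSD gave 5 libraries each, and S2Bb NSD and S2Bb HSD gave 6 each, 32 in all. A congenic strain carries a whole chromosome segment, not 1 gene. On normal salt the S2Bb animals had lower animal numbers in their titles than those of the other strains, so strain and number order cannot be told apart there. None of the precursors of the members lies on chromosome 2 in the RefSeq annotation.

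Hox genes encode transcription factors that give cells their place along the head-to-tail axis. They sit in 4 clusters, and the genes at one end of a cluster are used nearer the head while those at the other end are used nearer the tail; adult vessel walls keep a part of that regional pattern. Mir10 and Mir196 genes lie within these clusters, are transcribed with their Hox neighbours, and in turn repress some Hox messages, as mouse miR-196a does by directing the cleavage of Hoxb8 mRNA. In cultured human endothelium miR-10a dampens inflammatory signalling through NF-kB, and in zebrafish miR-10 promotes the growth of new vessels. In mouse fat, miR-196a favours brown adipocytes by repressing Hoxc8.

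In the GRCr8 annotation Mir10a lies on chromosome 10 between Hoxb5 and Hoxb4, and Mir10b on chromosome 3 within the span of Hoxd4. Mir196a lies on chromosome 7 between Hoxc10 and Hoxc9, and Mir196b on chromosome 4 between Hoxa9 and Hoxa10. The miR-10 genes therefore neighbour Hox genes used nearer the head than those beside the miR-196 genes. The mature sequences are shown from RefSeq (GRCr8), 5′ to 3′, because members of a pair are almost the same molecule; capitals mark the seed, bases 2 to 8, which pairs with targets.
miR-10a-5p: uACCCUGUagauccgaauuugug
miR-10b-5p: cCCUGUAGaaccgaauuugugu
miR-196a-5p: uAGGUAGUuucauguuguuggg
miR-196b-5p: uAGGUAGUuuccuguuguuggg
miR-196c-5p: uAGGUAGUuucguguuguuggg
All 3 miR-196 sequences share the seed AGGUAGU. Counted from the 5′ end, miR-196a-5p and miR-196b-5p differ by A12C, and miR-196a-5p and miR-196c-5p by A12G. The annotated start of miR-10b-5p lies 2 bases further along the hairpin than that of miR-10a-5p, so the listed seeds differ although the arms are alike. Aligned to the 23 bases of miR-10a-5p, the arm in the Mir10b hairpin differs by U12A, counted from the 5′ end of miR-10a-5p. The hairpins, with the annotated 5p arm in capitals, show that shift.
Mir10a hairpin: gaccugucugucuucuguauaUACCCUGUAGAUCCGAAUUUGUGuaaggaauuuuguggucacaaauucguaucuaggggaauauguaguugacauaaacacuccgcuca
Mir10b hairpin: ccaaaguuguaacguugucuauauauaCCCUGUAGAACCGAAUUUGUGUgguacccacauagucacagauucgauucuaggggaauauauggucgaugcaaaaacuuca
The mismatches that the counting allowed were not given in the sources used here. Reads of miR-10a-5p and miR-10b-5p, or of miR-196a-5p and miR-196b-5p, that carry 1 base error at the differing position could therefore have been assigned to the other member.

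Signal is given as deposited, in normalized reads per M reads (nRPM, M for mega). Libraries held 2.31 to 42.4 M recovered reads, and SS HSD replicate 2 and SS NSD replicate 6, at 2.31 and 6.56 M, were the shallowest. A column that stood identically under SS NSD replicate 1 and S2Ba NSD replicate 4 was left out of every group; it listed 61617 nRPM of miR-10a-5p, 80185 nRPM of miR-10b-5p, 5.36 nRPM of miR-196a-5p and 154 nRPM of miR-196b-5p. Smooth muscle microRNAs, miR-143 and miR-145 with all 4 arms listed, summed to 237274 to 742576 nRPM and marked the tissue as vessel wall. Differences between groups were tested with limma on log2(nRPM + 1) over the 484 names that reached 1 nRPM in 5 or more libraries, adjusted by Benjamini-Hochberg over all of them, and a call is an adjusted p under 0.05. All 4 members passed that filter. miR-196a-5p was above 1 nRPM in 3 of 5 SS NSD, 2 of 5 S2Ba NSD, 1 of 5 SS HSD and 1 of 6 S2Bb HSD libraries. It therefore passed only with SS NSD counted. In these bulk pieces fewer cells of a type and less RNA per cell cannot be told apart. The level of the thoracic aorta at which each piece was cut was not given in the sources used here, so its part in any value below was not tested.

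The pair of miR-10 members was abundant and the pair of miR-196 members scarce. Over the 32 libraries miR-10b-5p averaged 88787 ± 32921 nRPM (SD, n = 32), rank 2 among all names, and miR-10a-5p 74617 ± 14916 nRPM (SD, n = 32), rank 3. miR-10a-5p took 5.39 to 10.5% of the reads of a library, and miR-10b-5p 4.42 to 16.4%. miR-196b-5p averaged 26.6 ± 40.4 nRPM (SD, n = 32), rank 140, and miR-196a-5p 1.06 ± 2.21 nRPM (SD, n = 32), rank 418. From the lowest to the highest library, miR-10a-5p spanned 2.47-fold, miR-10b-5p 6.02-fold and miR-196b-5p 45.4-fold. miR-196a-5p rested on 445 reads in all and was at 0 in 7 libraries. With group means removed, the SD of log2(nRPM + 1) was 0.24 for miR-10a-5p and 0.35 for miR-10b-5p, against a median of 0.38 over the names tested. The same SD was 0.71 for miR-196a-5p, above 94.4% of the names tested, and 0.91 for miR-196b-5p, above 97.1%. These SDs are pooled over the 6 groups, and the spread was uneven among them. For miR-196b-5p it ran from 0.29 in S2Ba HSD to 1.74 in SS NSD, and for miR-196a-5p from 0.10 in S2Bb NSD to 1.47 in SS NSD.

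**Figure D1:**
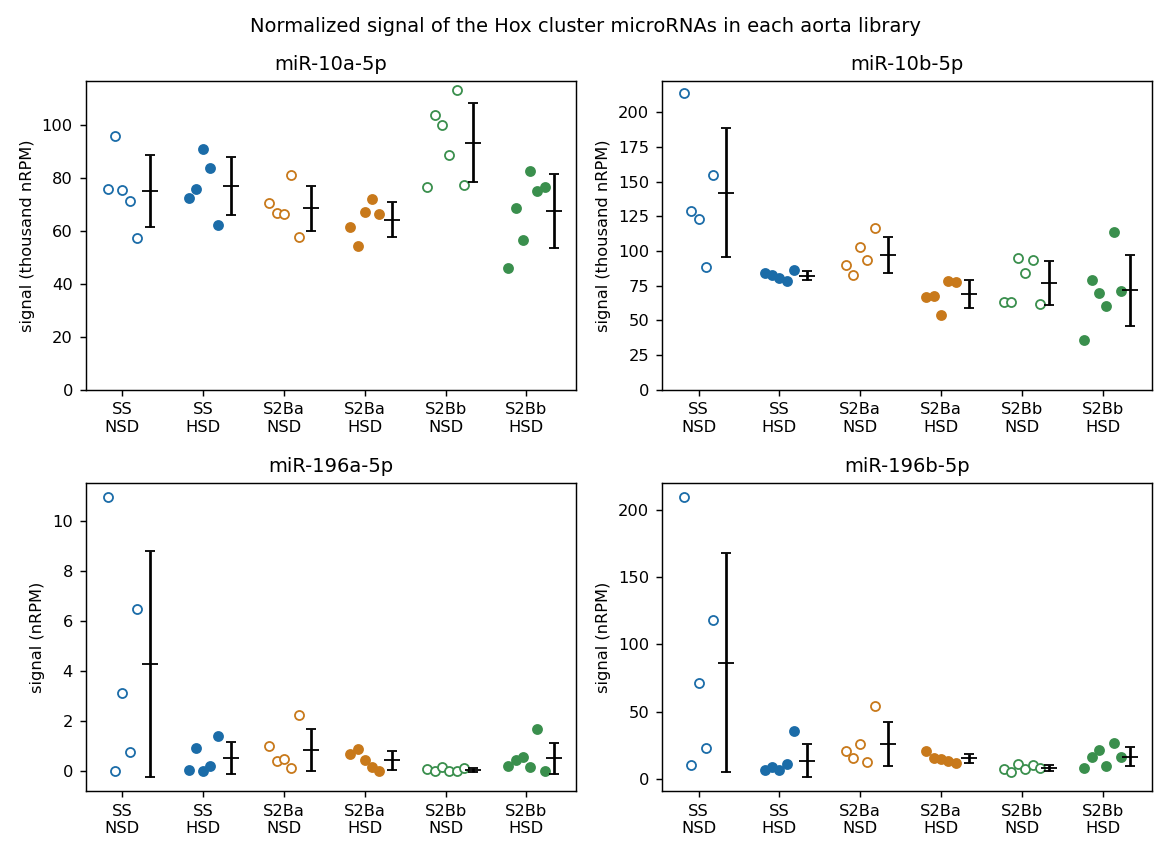
Each point is 1 library, open for normal salt and filled for high salt, with the deposited signal on the vertical axis (divided down to kilo-units in the upper panels, plain nRPM in the lower ones) and bars for the mean ± SD of the group. SS NSD libraries reach 213598 nRPM of miR-10b-5p and 210 nRPM of miR-196b-5p, while miR-10a-5p stays between 45881 and 113182 nRPM in every library.

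miR-10a-5p, from the HoxB cluster, overlapped across the SS and S2Ba groups and fell with salt in S2Bb. The 5 SS NSD libraries held 75778, 95708, 75312, 71069 and 57368 nRPM, and the 5 SS HSD libraries 72222, 75949, 90715, 83566 and 62156 nRPM. S2Ba NSD libraries held 70548, 66674, 66308, 81231 and 57501 nRPM, and S2Ba HSD libraries 61291, 54414, 67085, 72140 and 66301 nRPM. Those 4 groups overlapped, with no library standing far from the rest. S2Bb NSD ran from 76417 to 113182 nRPM with a median of 94133, and S2Bb HSD from 45881 to 82676 nRPM with a median of 71858. Of the 6 S2Bb NSD libraries 4 lay above all S2Bb HSD libraries, and 4 S2Bb HSD libraries lay below all S2Bb NSD ones. The share of the names tested with such a partial separation was not counted. Group means ran in the order S2Bb NSD (93180 ± 14887 nRPM, SD, n = 6), SS HSD (76922 ± 10902, SD, n = 5), SS NSD (75047 ± 13747, SD, n = 5), S2Ba NSD (68452 ± 8593, SD, n = 5), S2Bb HSD (67553 ± 13858, SD, n = 6) and S2Ba HSD (64246 ± 6708, SD, n = 5). S2Bb NSD was the only group whose mean exceeded the next by more than the larger SD of the 2.

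The change of miR-10a-5p on high salt in S2Bb was -0.48 ± 0.14 (log2, SE; limma adjusted p = 0.0382), a call in a comparison that called 5.99% of the names tested. It was 0.04 ± 0.15 in SS (adjusted p = 0.918) and -0.09 ± 0.15 in S2Ba (adjusted p = 0.938). The difference between the S2Bb and SS responses, -0.52 ± 0.21, did not pass (adjusted p = 0.487), so a strain dependence of the response was not shown. Leaving out S2Bb NSD replicate 2, 3 or 5 or S2Bb HSD replicate 1, 2 or 3 ended the call, with adjusted p from 0.0631 to 0.140 and log2 values from -0.49 to -0.37. The change was called under 10 of 14 other settings. With runs of adjacent animal numbers as a random block it was -0.49 (adjusted p = 0.180), not a call. With scaling to total reads it was -0.35 (adjusted p = 0.159) beside a median of all names of 0.13, against 0.03 with the authors' scaling.

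miR-10b-5p, from the HoxD cluster, was highest in SS on normal salt and, averaged over the strains, fell on high salt. SS NSD libraries held 213598, 129083, 123007, 88680 and 155007 nRPM. SS HSD libraries held 84148, 82415, 80384, 78154 and 85964 nRPM, all of them below the lowest SS NSD library. This was the tightest group of any member, 82213 ± 3069 nRPM (SD, n = 5), a coefficient of variation of 3.73%, against 141875 ± 46545 nRPM (SD, n = 5) in SS NSD, at 32.8%. S2Ba NSD libraries held 89553, 82967, 102840, 93577 and 116835 nRPM, and S2Ba HSD libraries 66760, 67384, 53962, 78658 and 77337 nRPM. Here too the 5 libraries on high salt lay below the 5 on normal salt. S2Bb NSD ran from 61633 to 94925 nRPM with a median of 73670, and S2Bb HSD from 35486 to 113708 nRPM with a median of 70500, so the S2Bb groups overlapped widely. The order of means was SS NSD, S2Ba NSD (97154 ± 13148 nRPM, SD, n = 5), SS HSD, S2Bb NSD (76818 ± 15926, SD, n = 6), S2Bb HSD (71659 ± 25563, SD, n = 6) and S2Ba HSD (68820 ± 9955, SD, n = 5). Of these neighbours, S2Ba NSD exceeded SS HSD by more than the larger SD, and no other pair did.

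Averaged over the strains, miR-10b-5p fell by 0.46 ± 0.12 on high salt (log2, SE; limma adjusted p = 0.0102). That comparison called 13.4% of the names tested, 5.79% lower, and miR-10b-5p was the 1 member of 4 called in it. The call held under each of 13 other settings, with adjusted p from 0.00218 to 0.0364, and without any of the 32 libraries in turn, with adjusted p from 0.00188 to 0.0211. Strain by strain the difference was -0.73 ± 0.21 in SS (adjusted p = 0.0783), -0.50 ± 0.21 in S2Ba (adjusted p = 0.324) and -0.16 ± 0.19 in S2Bb (adjusted p = 0.769), none of them a call. In SS 1.03% of the names tested were called and in S2Ba 0.826%. All 5 HSD libraries lay below all 5 NSD libraries in 0.62% of the names tested in SS and in 1.03% in S2Ba, miR-10b-5p among them in both. The responses of the strains differed by 0.23 ± 0.30 between S2Ba and SS, 0.57 ± 0.29 between S2Bb and SS and 0.34 ± 0.29 between S2Bb and S2Ba, with adjusted p of 0.867, 0.488 and 0.954. Animal numbers in the titles rise with diet in SS and S2Ba, so an effect of their order and one of salt cannot be told apart there. In S2Bb they do not rise with diet, but no run of adjacent numbers held both diets.

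The level of miR-10b-5p relative to miR-10a-5p needs no scaling factor, since both come from 1 library. The log2 ratio was 1.495, 0.43, 0.71, 0.32 and 1.43 in SS NSD and 0.34, 0.32, 0.63, 0.20 and 1.02 in S2Ba NSD, so miR-10b-5p exceeded miR-10a-5p in all 10 of those libraries. In S2Bb NSD it ran from -0.72 to -0.07 with a median of -0.27, below 0 in all 6. On high salt the strains lay together. The mean ratio of SS was 0.88 ± 0.55 (SD, n = 5) on normal salt and 0.11 ± 0.26 (SD, n = 5) on high salt. S2Ba went from 0.50 ± 0.33 (SD, n = 5) to 0.09 ± 0.24 (SD, n = 5), and S2Bb from -0.29 ± 0.24 (SD, n = 6) to 0.03 ± 0.41 (SD, n = 6). The ratio joins 2 members chosen together, and no test was made on it.

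**Figure D2:**
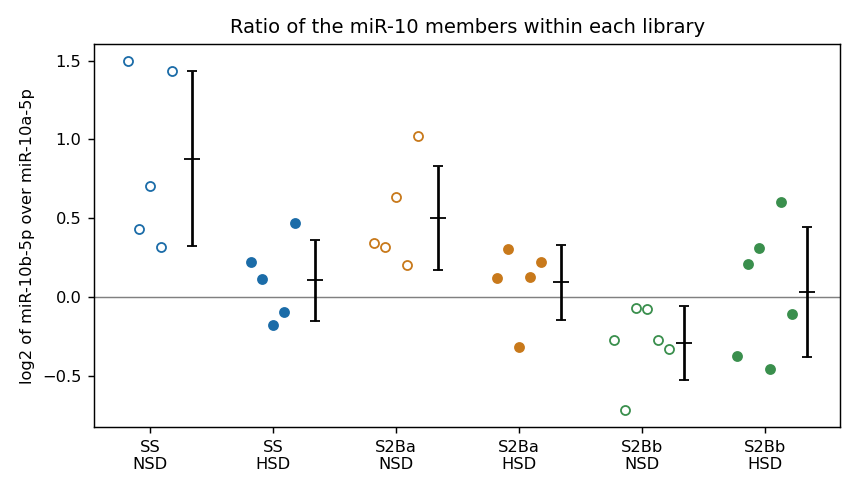
Points give the log2 ratio of miR-10b-5p to miR-10a-5p in each library, open for normal salt and filled for high salt, with mean ± SD beside each group. S2Bb NSD lies below 0 and SS NSD and S2Ba NSD above it, while the high-salt groups straddle 0.

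miR-196b-5p, from the HoxA cluster, was over 50 nRPM in 3 of 5 SS NSD libraries and 1 of 5 S2Ba NSD libraries, and in no library of the other groups. SS NSD libraries held 210, 9.89, 71.4, 22.9 and 118 nRPM. The range within this 1 group covered nearly the whole range of the series. SS HSD libraries held 6.47, 8.47, 6.17, 10.6 and 35.5 nRPM, 3 of them below every SS NSD library. S2Ba NSD libraries held 20.4, 15.7, 26.1, 12.4 and 54.0 nRPM and S2Ba HSD libraries 20.7, 15.1, 14.7, 12.8 and 12.0 nRPM, and these groups overlapped. S2Bb NSD ran from 4.63 to 11.2 nRPM with a median of 7.70, and S2Bb HSD from 8.00 to 26.6 nRPM with a median of 16.1. Means ran from SS NSD (86.5 ± 81.3 nRPM, SD, n = 5) through S2Ba NSD (25.7 ± 16.6, SD, n = 5), S2Bb HSD (16.3 ± 7.08, SD, n = 6), S2Ba HSD (15.1 ± 3.42, SD, n = 5) and SS HSD (13.4 ± 12.4, SD, n = 5) to S2Bb NSD (8.14 ± 2.37, SD, n = 6). No neighbours in that order differed by more than the larger SD.

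On high salt miR-196b-5p fell by 2.22 ± 0.53 in SS (log2, SE; limma adjusted p = 0.0318), 1 of the 4 members called in a comparison with 1.03% of names called. It was -0.57 ± 0.53 in S2Ba (adjusted p = 0.775) and 0.85 ± 0.48 in S2Bb (adjusted p = 0.406), neither a call. The S2Bb response was higher than the SS response by 3.07 ± 0.71 (adjusted p = 0.0369), in a comparison that called 0.413% of the names tested. The same difference was 1.65 ± 0.75 for S2Ba against SS (adjusted p = 0.620) and 1.42 ± 0.71 for S2Bb against S2Ba (adjusted p = 0.954). Without SS NSD replicate 2 or 4 or SS HSD replicate 1, 2 or 5 the SS change was no longer called, with adjusted p from 0.0590 to 0.166. Leaving out any 1 of 15 libraries ended the call of the response difference (adjusted p from 0.0593 to 0.133). They were SS NSD replicates 2, 4 and 6, SS HSD replicates 1, 2, 4 and 5, S2Bb NSD replicates 1, 2, 4 and 6 and S2Bb HSD replicates 2, 3, 5 and 6. Of 14 other settings, 7 called the SS change and 7 the response difference. With runs of adjacent animal numbers as a random block the adjusted p was 0.129 and 0.614. The SEs rest on a spread pooled over the 6 groups, an SD of 0.91, against 1.74 in SS NSD and 0.96 in SS HSD. They therefore understate the spread of SS NSD. Fitted to the compared groups alone, the SS change had a limma adjusted p of 0.563 and the response difference 0.142.

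miR-196a-5p, from the HoxC cluster, followed miR-196b-5p at a much lower level. SS NSD libraries held 10.96, 0, 3.14, 0.755 and 6.497 nRPM, from 121, 0, 49, 12 and 42 reads. SS HSD libraries held 0.0370, 0.941, 0, 0.211 and 1.41 nRPM, from 1, 3, 0, 4 and 25 reads. The high SS NSD libraries were the same 3 that were high in miR-196b-5p, and the SS NSD library without a read was the lowest in miR-196b-5p. S2Ba NSD held 1.02, 0.399, 0.507, 0.126 and 2.25 nRPM, and S2Ba HSD 0.678, 0.892, 0.429, 0.157 and 0 nRPM. S2Bb NSD ran from 0 to 0.175 nRPM with a median of 0.0384, and S2Bb HSD from 0 to 1.70 nRPM with a median of 0.330. For libraries at 0 a floor of 3 reads was taken, which is 0.194 nRPM in SS NSD replicate 3 and 0.213 nRPM in SS HSD replicate 4. The exact 95% interval reaches a little above that floor, to 2.06e-05% and 2.31e-05% of the reads, counting error only. Means ran from SS NSD (4.27 ± 4.52 nRPM, SD, n = 5) through S2Ba NSD (0.860 ± 0.841, SD, n = 5), SS HSD (0.521 ± 0.628, SD, n = 5), S2Bb HSD (0.514 ± 0.616, SD, n = 6) and S2Ba HSD (0.431 ± 0.365, SD, n = 5) to S2Bb NSD (0.0622 ± 0.0750, SD, n = 6), and the step from S2Ba HSD to S2Bb NSD was the 1 that exceeded the larger SD. No diet comparison of miR-196a-5p passed: it was -1.36 ± 0.42 in SS (log2, SE; limma adjusted p = 0.102), -0.31 ± 0.42 in S2Ba (adjusted p = 0.882) and 0.43 ± 0.38 in S2Bb (adjusted p = 0.640). At so few reads the scale with 1 nRPM added understates a change.

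In the 4 libraries with more than 50 nRPM of miR-196b-5p, miR-196a-5p came to 4.16 to 5.49% of it; in the other 28 it came to 0 to 11.1%. The members differ by 1 base, and the part of miscalled miR-196b-5p reads in the miR-196a-5p values was not tested.

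On normal salt 3 members were lower in S2Bb than in SS. With S2Bb compared with SS, miR-10b-5p was lower by -0.85 ± 0.20 (log2, SE; limma adjusted p = 0.0284), miR-196a-5p by -1.79 ± 0.40 (adjusted p = 0.0260) and miR-196b-5p by -2.62 ± 0.51 (adjusted p = 0.00597). These 3 of the 4 members were the 3 names called lower in that comparison, which called 0.826% of the names tested in either direction and 0.62% lower. miR-10a-5p was the exception at 0.32 ± 0.15, not a call (adjusted p = 0.412). miR-196a-5p was tested only because SS NSD, the group in which it was highest, carried it past the filter, which limits its call here. In each of the 3 called members 4 of the 5 SS NSD libraries lay above all 6 S2Bb NSD libraries. The remaining SS library was replicate 5 for miR-10b-5p and replicate 3 for the miR-196 members. The share of the names tested with such a pattern was not counted. The miR-196b-5p call here shares its 5 SS NSD libraries with the miR-196b-5p calls for salt in SS and for the response difference. Those 3 calls are therefore not independent of each other. Nor are the calls of the 3 members in this comparison, which rest on the same SS NSD and S2Bb NSD libraries. The members were chosen with earlier results of these data known, so their match with the names called lower is a description, not a test.

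Those calls leaned on single libraries. miR-10b-5p was no longer called without SS NSD replicate 2, 4 or 6 or S2Bb NSD replicate 1, 2 or 6 (adjusted p from 0.0630 to 0.112), and miR-196a-5p without SS NSD replicate 2, 4 or 6 or S2Bb NSD replicate 1 or 2 (adjusted p from 0.0543 to 0.112). miR-196b-5p stayed called without any 1 library, with adjusted p from 3.91e-05 to 0.0333. With runs of adjacent animal numbers as a random block, the adjusted p was 0.295 for miR-10b-5p, 0.308 for miR-196a-5p and 0.244 for miR-196b-5p, so none of the 3 was then called. Fitted to the compared groups alone, without the spread of the other groups, the limma adjusted p was 0.272, 0.295 and 0.254 in that order, again no call. Over all other settings miR-10b-5p was called in 7 of 14, miR-196a-5p in 7 of 12 and miR-196b-5p in 11 of 14.

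On normal salt the mean of S2Ba stood between those of the other strains in miR-10b-5p and both miR-196 members, with no call. Against SS it differed by -0.12 ± 0.15 in miR-10a-5p, -0.50 ± 0.21 in miR-10b-5p, -1.08 ± 0.42 in miR-196a-5p and -1.21 ± 0.53 in miR-196b-5p, with limma adjusted p from 0.207 to 0.803 and 0.413% of names called. S2Bb against S2Ba gave 0.44 ± 0.15 in miR-10a-5p (adjusted p = 0.0867) and -1.41 ± 0.51 in miR-196b-5p (adjusted p = 0.110), no call where 3.51% of names were called. All 6 S2Bb NSD libraries lay below all 5 S2Ba NSD libraries in miR-196b-5p, as they did in 2.07% of the names tested. On high salt no member was called between strains, with adjusted p from 0.431 to 0.997; those 3 comparisons called 0.207%, 0.0% and 0.0% of the names tested. The strain differences on high salt were smaller in size than 0.46 on the log2 scale for every member.

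**Figure D3:**
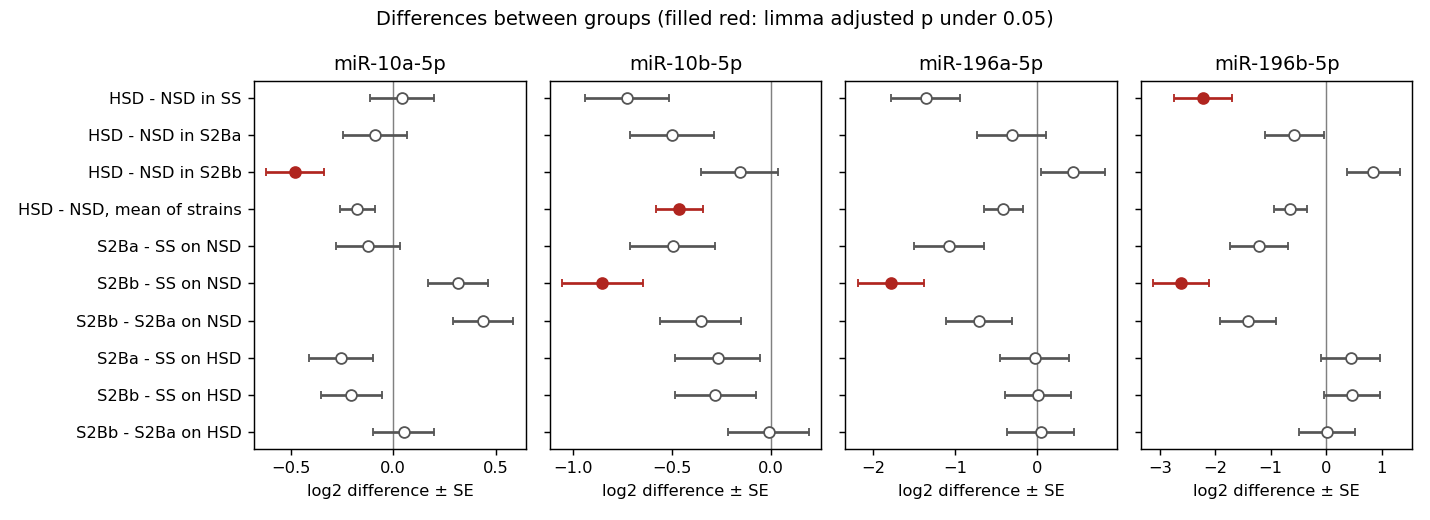
Each point is a log2 difference with its SE from limma, positive where the first-named group is higher, and filled red where the adjusted p is under 0.05. Called points are miR-10a-5p for salt in S2Bb, miR-10b-5p for salt over the strains, miR-196b-5p for salt in SS and 3 members for S2Bb against SS on normal salt; the horizontal scales differ between panels.

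With the groups pooled, libraries high in 1 of miR-10b-5p, miR-196a-5p and miR-196b-5p for their group tended to be high in the others. Correlations were taken over the 32 libraries as deviations of log2(nRPM + 1) from the group mean, with 100000 permutations within groups and adjustment over the 6 pairs. miR-196a-5p and miR-196b-5p moved most closely (Pearson r = 0.91, permutation adjusted p = 6.0e-05; Spearman rho = 0.78, adjusted p = 0.00012), and r was 0.83 without the 2 libraries farthest out. miR-10b-5p and miR-196b-5p, encoded in different clusters, gave r = 0.58 (permutation adjusted p = 0.0030) and rho = 0.62 (adjusted p = 0.00138), with r again 0.58 without the 2 farthest libraries. For miR-10b-5p and miR-196a-5p r was 0.50 (permutation adjusted p = 0.0387), but rho was 0.38 (adjusted p = 0.0688). Taken group by group, r of miR-10b-5p with each miR-196 member was positive in 5 of 6 groups. In S2Ba HSD it was -0.52 with miR-196a-5p and -0.40 with miR-196b-5p (n = 5). In S2Bb NSD it was 0.01 with miR-196a-5p (n = 6). The raw permutation p of the closest pair, 1e-05, is the smallest that number of permutations can give.

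Over all libraries the r of miR-10a-5p with miR-10b-5p was 0.31 (permutation adjusted p = 0.186; rho = 0.13, adjusted p = 0.518) and fell to 0.15 without the 2 farthest libraries. With miR-196a-5p r was -0.42 (permutation adjusted p = 0.0512; rho = -0.44, adjusted p = 0.0404) and with miR-196b-5p r was -0.35 (permutation adjusted p = 0.102; rho = -0.29, adjusted p = 0.180). Without the 2 farthest libraries r was -0.44 and -0.45.

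Values within single strains are given without a test of the differences between strains. Within the 10 SS libraries r between miR-10b-5p and miR-196b-5p was 0.66 (permutation adjusted p = 0.161), within the 10 S2Ba libraries 0.43 (adjusted p = 0.346) and within the 12 S2Bb libraries 0.84 (adjusted p = 0.00912). The miR-196 pair gave 0.95, 0.86 and 0.64 in that order. miR-10a-5p against miR-10b-5p gave -0.13 in SS (permutation adjusted p = 0.851), -0.19 in S2Ba (adjusted p = 0.666) and 0.65 in S2Bb (adjusted p = 0.1196). miR-10a-5p against miR-196b-5p gave -0.65 in SS (permutation adjusted p = 0.161), -0.74 in S2Ba (adjusted p = 0.0508) and 0.25 in S2Bb (adjusted p = 0.612). Both miR-10 members were lowest of all libraries in S2Bb HSD replicate 1, at 45881 and 35486 nRPM, and it was 1 of the 2 libraries farthest out. Depth, on a log10 scale, gave r of 0.02 with miR-10a-5p, -0.12 with miR-10b-5p, -0.32 with miR-196a-5p and -0.13 with miR-196b-5p, as a description over the same 32 libraries.

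**Figure D4:**
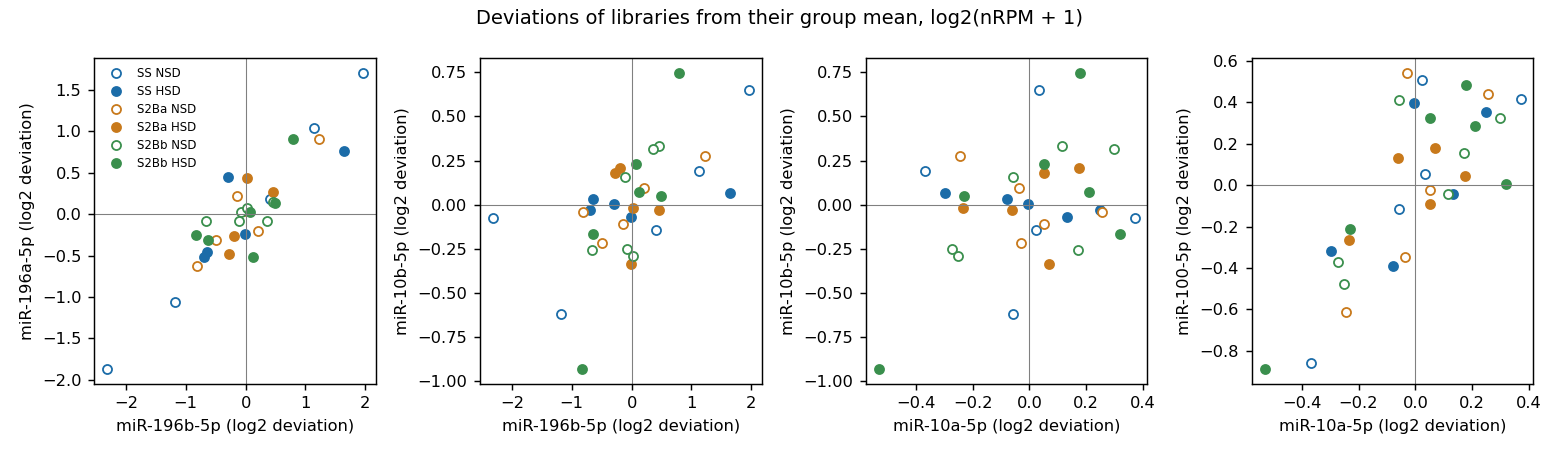
Points are libraries coloured by group, plotted as log2 deviations from the mean of their group. miR-196a-5p rises with miR-196b-5p (r = 0.91), miR-10b-5p rises with miR-196b-5p (r = 0.58), miR-10b-5p and miR-10a-5p scatter (r = 0.31), and miR-100-5p rises with miR-10a-5p (r = 0.77).

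Relatives of miR-10 outside the Hox clusters, miR-99a-5p, miR-99b-5p and miR-100-5p, share much of its sequence but have another seed. Reference sequences are given for those matched, seed in capitals.
miR-99b-5p: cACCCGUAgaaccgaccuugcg
miR-100-5p: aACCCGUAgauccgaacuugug
Their longest run in common with a member was guagauccgaa, 11 bases, for miR-100-5p with miR-10a-5p, and guagaaccga, 10 bases, for miR-99b-5p with miR-10b-5p. Mir99b is annotated on chromosome 1 and Mir100 on chromosome 8. miR-100-5p averaged 10860 nRPM over the libraries, miR-99b-5p 13031 nRPM and miR-99a-5p 2217 nRPM. The correlation of miR-10a-5p with miR-100-5p was 0.77 (permutation adjusted p = 0.00024; rho = 0.69, adjusted p = 0.00168), with miR-99a-5p 0.56 (adjusted p = 0.0213; rho = 0.50, adjusted p = 0.0355) and with miR-99b-5p 0.49 (adjusted p = 0.0213; rho = 0.54, adjusted p = 0.0147), over a family of 12 relations that was added after the data were seen. Without the 2 farthest libraries r was 0.66, 0.45 and 0.44. No relation of the other 3 members with these relatives passed. Within strains miR-10a-5p and miR-100-5p gave 0.79 in SS, 0.65 in S2Ba and 0.81 in S2Bb, with adjusted p of 0.241, 0.112 and 0.0178. Of the 3 relatives 1 was called in 1 comparison: miR-100-5p was higher in S2Bb than in S2Ba on normal salt, at 16107 ± 3934 nRPM (SD, n = 6) against 6895 ± 2308 (SD, n = 5), by 1.25 ± 0.25 (log2, SE; limma adjusted p = 0.00238). On high salt in S2Bb it was -0.60 ± 0.23 (adjusted p = 0.149), beside -0.48 for miR-10a-5p.

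Other products of the Hox clusters were rarer. Of 9 names listed for this, 7 were in the table and 2 passed the filter, the opposite arms miR-10a-3p and miR-10b-3p, and neither was called in any of the comparisons. miR-10a-3p averaged 10.8 nRPM, from 8.45 ± 2.18 (SD, n = 5) in SS NSD to 12.6 ± 3.56 (SD, n = 6) in S2Bb NSD. miR-10b-3p averaged 7.18 nRPM, from 8.36 ± 1.01 (SD, n = 5) in S2Ba NSD to 5.15 ± 1.48 (SD, n = 6) in S2Bb NSD. With group means removed, neither followed its own 5p arm closely, with r of -0.34 for miR-10a and 0.22 for miR-10b as a description over the 32 libraries. On high salt in SS, where miR-10b-5p was at -0.73, miR-10b-3p was at 0.07 ± 0.22 (log2, SE; limma adjusted p = 0.916). For S2Bb against SS on normal salt each 3p arm went in the direction of its 5p arm. There miR-10b-3p was at -0.53 ± 0.21 (limma adjusted p = 0.296), beside -0.85 for miR-10b-5p. miR-10a-3p was at 0.52 ± 0.18 (adjusted p = 0.187), beside 0.32 for miR-10a-5p. miR-196c-5p, from the far end of the HoxB cluster between Hoxb13 and Hoxb9, held 57 reads over 23 libraries, with a mean of 0.409 nRPM in SS NSD and at most 0.0877 nRPM in the other groups. miR-615, from the HoxC cluster, held 179 reads over 28 libraries with a mean of 0.302 nRPM. The 3p arms of miR-196a, miR-196b and miR-196c had 4, 21 and 4 reads.

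MicroRNAs whose deviations were most like those of a member were taken from the names with a mean of at least 10 nRPM, again with group means removed and without a test. For miR-10a-5p they were miR-100-5p, miR-598-3p (r = 0.59), miR-99a-5p, miR-221-5p (0.51) and miR-99b-5p, and the most opposed were miR-872-3p (-0.64), miR-194-5p (-0.63) and miR-130a-3p (-0.59). For miR-10b-5p they were miR-196b-5p, miR-30e-3p (0.47), miR-152-5p (0.44), miR-30c-2-3p (0.38) and miR-195-3p (0.36), and the most opposed were miR-21-3p (-0.62), miR-138-5p (-0.54) and miR-29c-3p (-0.53). For miR-196a-5p they were miR-196b-5p, miR-30c-2-3p (0.53), miR-30a-3p (0.52), miR-10b-5p and miR-30e-3p (0.47), with miR-455-5p (-0.52), miR-221-5p (-0.44) and miR-10a-5p opposed. For miR-196b-5p they were, beside miR-196a-5p, whose mean lies under that level, miR-10b-5p, miR-30a-3p (0.45), miR-30e-3p (0.44), miR-9a-5p (0.41) and miR-30c-2-3p (0.40), with miR-31a-5p (-0.37), miR-455-5p (-0.37) and miR-10a-5p opposed. The 3p arms miR-30e-3p and miR-30c-2-3p stood in the lists of miR-10b-5p, miR-196a-5p and miR-196b-5p, and miR-30a-3p in those of both miR-196 members. Among the most opposed for both miR-196 members was miR-10a-5p.

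No list of marker microRNAs had an r above 0.36 in size with any member, and these r were not tested. Over 9 lists (smooth muscle, striated muscle, endothelium, fat, red and white blood cells, neurons, epithelium and liver) the summed level had r between -0.34 and 0.36 with the members, as a description over 32 libraries, and no listed name that was in the table was at 0 throughout. Fat, in which miR-196 is also made, summed to 839 to 2010 nRPM in SS NSD and 968 to 1796 nRPM in SS HSD over the 2 of 4 listed names in the table, and its r was 0.25 with miR-196a-5p and 0.09 with miR-196b-5p. Endothelial miR-126a summed to 1441 to 2757 nRPM in SS NSD, 793 to 2726 nRPM in SS HSD and 1429 to 2691 nRPM in S2Bb NSD, with r of -0.34 for miR-10b-5p and -0.32 for miR-10a-5p. The neuronal list, 33.3 to 88.0 nRPM in all libraries, had the highest r with a member, 0.36 with miR-196a-5p. Smooth muscle had r of 0.31 with miR-10a-5p, 0.30 with miR-10b-5p, -0.09 with miR-196a-5p and 0.13 with miR-196b-5p. The part of these cells in the values of the members was not tested.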

How the data were processed

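Small RNA libraries were made from 1 microgram of total RNA per animal with an integrity number of at least 8 and read as 51 bp single ends with a goal of 30 M reads, per the labels' protocols. Tools in the submitters' processing notes are STAR 2.3.1, edgeR 3.6.8, R 3.2.3, FastQC and bcl2fastq 1.8.4. What each did, the normalization, the annotation and the build were not given in the sources used here. A table of normalized signal was deposited by the authors, not log-transformed, with 835 names and 34 columns that summed to 0.726 to 1.30 M. In every column 100% of values were, to a tolerance of 1e-06, whole multiples of the smallest step. Dividing by it recovered whole reads for the tests on counts and for the depths. Of 36 labelled samples, SS HSD replicate 3 and S2Ba HSD replicate 2 were not analysed here, and the 2 identical columns were left out because 1 of their labels has to be wrong, which left 32 libraries. Replicate numbers follow accession order and pair nothing, and the labels name no batch; where nothing says how animals were drawn, p-values measure the spread between these samples.

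All 6 groups were fitted in 1 model with limma 3.58.1 (R 4.3.3, variance trend) on log2(signal + 1), for diet within strains, diet averaged over strains, strain within diets and differences of diet responses. Correlations used Python 3.11.15 with scipy 1.17.1. The fit and the correlations were tested on simulated data with the same spread in every group, so the uneven spread of the members was not covered. Alternatives were pseudocounts of 0.5 and 5, other filters, scaling to total reads or by RLE factors, edgeR 4.0.16, DESeq2 1.42.0 and limma-voom with sample weights on recovered reads, fits of the compared groups alone, the identical library under either label, omission of libraries, and runs of animal numbers as a random block. The members, lists, naming rule and alternatives were chosen with earlier results of these data known. Named beside the members are the 5 microRNAs most like each and the 3 most opposed among named ones with a mean of at least 10 nRPM, and every detected name of the other Hox cluster products and of the miR-99/100 relatives. Sequences and gene neighbours come from RefSeq (GRCr8), which matched all names sought but miR-99a-5p; its coordinates are not printed since the build of the table is not known. Intervals and limits of a count of 0 cover counting error only.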

Additional observations from a re-analysis of the deposited data

Results flagged for a closer look

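In 24 groups of 5 or 6 libraries, 1 for each member and group, 2 held a library far from its neighbours by Dixon's criterion, where chance gives about 1 in 20. miR-196a-5p in S2Bb HSD replicate 5 was at 1.70 nRPM, with the other 5 libraries at 0 to 0.577 nRPM. miR-196b-5p in SS HSD replicate 6 was at 35.5 nRPM, with the other 4 at 6.17 to 10.6 nRPM.

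The diet response of miR-196b-5p differed between S2Bb and SS by 3.07 on the log2 scale, by the interaction term of limma (adjusted p = 0.0369, not past the threshold when any 1 of 15 libraries was left out). The library deposited under both SS NSD and S2Ba NSD labels, which no comparison used, held 154 nRPM of miR-196b-5p and 5.36 nRPM of miR-196a-5p. Both values lie within the range of the other SS NSD libraries and above those of the other S2Ba NSD libraries, at most 54.0 and 2.25 nRPM. Its miR-10b-5p, 80185 nRPM, lies below the lowest other library of both groups, 88680 nRPM in SS NSD and 82967 nRPM in S2Ba NSD. Its miR-10a-5p, 61617 nRPM, lies within the range of both. Levels were not used to assign this library.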

How the results depend on the processing

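Of 710 values of the 52 member differences under other settings, 648 kept their direction and their side of the threshold, 33 lost a call, 9 gained one and 20 changed sign; the causes were not tested. The change of miR-10b-5p averaged over strains kept its call throughout, as the report gives. Log2 values are named below where a setting changed a result, with salt meaning high minus normal.

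Calls were lost as follows. For miR-196b-5p with salt in SS, the value was -2.22 without a filter, with the compared groups alone and with the identical library counted in S2Ba, -2.04 with total-read scaling, -1.39 with limma-voom, -1.86 without the 2 shallowest libraries and -2.34 with number runs as a random block. For miR-10a-5p with salt in S2Bb it was -0.48 without a filter and with the compared groups alone, -0.35 with total-read scaling and -0.49 with the number runs. For S2Bb against SS on normal salt, miR-10b-5p was at -0.85 without a filter and with the compared groups alone, -0.84 with RLE factors and with the number runs, -0.71 with limma-voom, -0.72 with the identical library counted in SS and -0.80 without the 2 shallowest libraries. miR-196a-5p there was at -1.79 without a filter and with the compared groups alone, -3.17 with limma-voom, -1.53 without the 2 shallowest libraries and -1.80 with the number runs. DESeq2 put miR-196a-5p there at -6.07 (DESeq2 unadjusted p = 1.16e-07) but gave it no adjusted p, which is not counted as a lost call. miR-196b-5p there was at -2.18 with limma-voom, -2.62 with the compared groups alone and -2.64 with the number runs. Its difference of responses between S2Bb and SS was 2.56 with a pseudocount of 5, 3.07 without a filter, with the compared groups alone and with the identical library counted in S2Ba, 2.29 with limma-voom, 2.72 without the 2 shallowest libraries and 3.12 with the number runs.

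Calls were gained by DESeq2 for miR-10b-5p with salt in SS (-0.84), miR-196b-5p with salt over strains (-0.87) and for S2Ba against SS on normal salt (-1.75), for S2Bb against S2Ba on normal salt in miR-196a-5p (-3.76) and miR-196b-5p (-1.67), and for the response of miR-196a-5p in S2Bb against SS (6.14). A minimum of 10 nRPM gained miR-10b-5p with salt in SS (-0.73), the compared groups alone gained miR-196b-5p for S2Bb against S2Ba on normal salt (-1.41), and omission of the 2 shallowest libraries gained miR-10a-5p there (0.44).

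Signs changed in differences that were not calls. miR-10a-5p with salt in SS became -0.0015 with RLE factors, -0.0058 with DESeq2, -0.024 with limma-voom and -0.047 without the 2 shallowest libraries, and for S2Ba against SS on normal salt 0.093 with total-read scaling. On high salt miR-196a-5p for S2Ba against SS became 0.078 without the 2 shallowest libraries and 0.0074 with the number runs, and for S2Bb against SS -0.0014 with a pseudocount of 5, -0.041 with total-read scaling and -0.019 with the number runs. For S2Bb against S2Ba on high salt, total-read scaling gave -0.0011 for miR-10a-5p, -0.0091 for miR-196a-5p and -0.035 for miR-196b-5p; edgeR gave 0.035, DESeq2 0.034 and limma-voom 0.037 for miR-10b-5p; the number runs gave -0.027 for miR-196a-5p and -0.075 for miR-196b-5p, and RLE factors -0.0080 for miR-196b-5p. The response of miR-196a-5p in S2Ba against SS became -0.56 with limma-voom. Total-read scaling moved the median of all names to 0.13 for salt in SS and in S2Bb and to 0.12 for S2Ba against SS on normal salt.

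Among correlations, miR-10a-5p with miR-196a-5p passed at a pseudocount of 0.5 (r = -0.44), without S2Bb HSD (-0.56) and within S2Ba (-0.81), and was 0.011 within S2Bb. miR-10a-5p with miR-196b-5p passed with total-read scaling (-0.50) and without S2Bb HSD (-0.53), and was 0.25 within S2Bb. miR-10b-5p with miR-196a-5p no longer passed with RLE factors (0.48), without the 2 shallowest libraries (0.49), without SS NSD (0.35), S2Ba NSD (0.49) or S2Bb HSD (0.51), or within SS (0.73), S2Ba (0.16) or S2Bb (0.58). miR-10a-5p with miR-10b-5p was -0.13 within SS and -0.19 within S2Ba. Within single strains, miR-10b-5p with miR-196b-5p did not pass in SS (0.66) and S2Ba (0.43), and the miR-196 pair did not in S2Bb (0.64).

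With 1 library left out, salt in SS ranged from -0.049 to 0.14 for miR-10a-5p, -0.88 to -0.56 for miR-10b-5p, -1.83 to -0.93 for miR-196a-5p and -2.80 to -1.73 for miR-196b-5p. Salt in S2Bb ranged from -0.54 to -0.37 for miR-10a-5p and -0.31 to 0.029 for miR-10b-5p, and salt over strains from -0.84 to -0.49 for miR-196b-5p. On normal salt S2Ba against SS ranged from -1.54 to -0.65 for miR-196a-5p and -1.79 to -0.72 for miR-196b-5p, and S2Bb against SS from -1.005 to -0.69 for miR-10b-5p and -2.25 to -1.36 for miR-196a-5p. On high salt miR-196a-5p ranged from -0.16 to 0.16 for S2Ba against SS and -0.18 to 0.20 for S2Bb against SS, while S2Bb against S2Ba ranged from -0.013 to 0.16 for miR-10a-5p, -0.16 to 0.18 for miR-10b-5p, -0.14 to 0.15 for miR-196a-5p and -0.14 to 0.18 for miR-196b-5p. The S2Bb response minus that of SS ranged from 1.36 to 2.26 for miR-196a-5p and 2.58 to 3.65 for miR-196b-5p. Without SS NSD replicate 3, the library with no read of miR-196a-5p, that member was called for salt in SS, for S2Ba against SS on normal salt and in the response difference, and miR-196b-5p was called for salt over strains (adjusted p = 0.0286) and for S2Ba against SS (adjusted p = 0.0455). miR-10b-5p was called for salt in SS without SS NSD replicate 5 (adjusted p = 0.0321) or S2Bb HSD replicate 1 (adjusted p = 0.0355), and miR-196a-5p without SS NSD replicate 5 (adjusted p = 0.0379).

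Counts of names called ranged over the other settings from 0 to 20 for salt in SS (5 in the main test), 0 to 25 in S2Ba (4), 8 to 63 in S2Bb (29) and 32 to 110 over strains (65), and on normal salt from 0 to 19 for S2Ba against SS (2), 0 to 15 for S2Bb against SS (4) and 5 to 48 for S2Bb against S2Ba (17). No paired analysis was possible because the labels give animal numbers and no pairing. Depth limits miR-196a-5p most, since 3 reads are worth 0.941 nRPM in SS HSD replicate 2 and 0.464 nRPM in SS NSD replicate 6.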
